A study of Mus musculus with 6 samples.

Results

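Immediate early genes were followed here in whole testes of C57BL/6J mice, as 10 genes of the 22180 that have a probe set of their own on the arrays. The 10 genes are Fos, Fosb, Jun, Junb, Jund, Egr1, Ier2, Atf3, Dusp1 and Btg2, taken by name from what is known of the early response, with earlier results of these arrays known. They have 11 probe sets with that symbol alone, and for Jund, which has 2, the brighter over all arrays was used. Their RNA was read on 6 whole-transcript Affymetrix arrays, where 3 samples had atrazine (ATZ, a triazine herbicide) and 3 had none. ATZ was given to adult males in drinking water at 100 mg/l for 3 weeks, an estimated daily intake of 25 mg/kg. They then had 2 weeks without ATZ before the testes were taken at 10 weeks of age. Control males of the same strain and age had no ATZ. Separate animals are not named for the samples, so the tests measure only the spread between these samples.

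Immediate early genes are transcribed soon after a cell receives a signal, without the need for newly made proteins. Kinases of the MAP kinase and cyclic AMP pathways act on factors such as SRF, the ETS-type partners of SRF and CREB, which already sit at the promoters of these genes. Their mRNAs are short-lived, so the level falls again once the signal ends. Fos and Jun proteins pair into AP-1, a dimer that binds DNA through a basic leucine zipper. In the testis, Leydig, Sertoli and peritubular cells and germ cells all can express members of this group, and gonadotropins acting through cyclic AMP are among their known inducers. The mRNA was thus measured 2 weeks after the last ATZ, and each value is a mean over all cell types of the testis. Fewer cells of a type and less RNA per cell cannot be told apart in such samples. All 9 measured markers of spermatids and all 7 measured markers of spermatocytes lay above the median probe set, 6.62, in mean level. So did 8 of 8 Leydig and 11 of 11 Sertoli markers. As 14252 of all 22180 genes did too, this is only a weak check of the labelled tissue. Control replicate 3 was the lowest control for 41 of 44 markers of somatic cells, where the share over all genes was 38.4%. Some changes are also given without it. It was not alone in this, as the mean log2 deviation of these markers from their own means was -0.191 there and -0.17 in ATZ replicate 3. Control replicate 2 lay further off, at 0.253.

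Promoter sequences show where signals may reach some of these genes. RefSeq promoter windows (GRCm38.p6, 250 bases before to 50 bases after the annotated start, both strands searched) were matched for 8 of the 10 genes, all but Egr1 and Ier2. The cyclic AMP response element, CRE, spelled TGACGTCA, is in the window of Btg2 and of Dusp1 and in 1.79% of all 32851 windows. The stretches of these 2 promoters that hold it are shown, with the CRE in capitals, beside one of Fos with its TATA box (TATAAA) and one of Jun with its GC box (GGGCGG, here on the other strand) in capitals.
Btg2 (chr1:134079256-134079345, minus strand, bases -190 to -101 from the start): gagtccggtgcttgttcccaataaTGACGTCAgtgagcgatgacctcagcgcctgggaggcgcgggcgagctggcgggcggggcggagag
Dusp1 (chr17:26508573-26508662, minus strand, bases -190 to -101 from the start): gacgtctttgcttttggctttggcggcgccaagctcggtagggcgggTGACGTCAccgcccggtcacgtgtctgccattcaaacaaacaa
Fos (chr12:85473800-85473889, plus strand, bases -90 to -1 from the start): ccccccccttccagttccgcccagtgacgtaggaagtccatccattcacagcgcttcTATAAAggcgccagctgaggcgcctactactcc
Jun (chr4:95052263-95052352, minus strand, bases -130 to -41 from the start): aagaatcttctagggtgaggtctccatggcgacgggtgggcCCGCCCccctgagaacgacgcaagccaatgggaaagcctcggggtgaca

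A GC box was found in 6 of the 8 windows (Btg2, Atf3, Jun, Fosb, Fos and Dusp1) and in 35.7% of all windows. The TATA box was found in Fos, at -33 to -28, and in Junb, where it starts at the annotated start, and in 13.6% of all windows. A site for EGR factors (GCGNGGGCG) was found in Btg2, at -131 to -123, and in Fosb, at -50 to -42, overlapping a GC box in Fosb, and in 5.55% of all windows. None of the 8 windows held the AP-1 site (TGANTCA, 7.81% of all windows), the ETS core (CCGGAA, 14.9%) or the CArG box bound by SRF (1.63%). These are matches of letters within 300 bases and no more.

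None of the 10 genes differed between ATZ-treated and control samples beyond the spread between replicates. Values are log2, made by the authors with RMA, and changes are ATZ-treated minus control. The genes were tested with limma over all 41345 probe sets, two-sided, with Benjamini-Hochberg adjustment, and the adjusted p was 0.998 for each of the 10. Over all probe sets 0 had an adjusted p under 0.05, which is 0%. At an unadjusted p under 0.05 there were 0 of the 10 genes, against 530 of 22180 genes, or 2.39%. The study's cutoffs were a fold change of 1.5 and a p under 0.05, with no word on adjustment. With the unadjusted p of limma they were met by 0 of the 10 genes and by 0.203% of all genes. The ranges of the groups overlapped for all 10, whereas 3.08% of all genes were lower and 3.83% higher in ATZ-treated samples with no overlap. With shares this small in the background, counts of 0 among 10 genes do not set the group apart from other genes. What the arrays do give is a limit on the size of any change in the array signal of whole testis. It says less about the RNA where a probe set is dim, since changes there are compressed toward 0. Fos and Ier2, at means of 6.12 and 5.92, lay below the median probe set, 6.62, and Atf3 and Fosb, at 6.69 and 6.83, not far above it. A change within 1 cell type is not limited by it. For each of the 10 genes, the 95% interval of the log2 change lay within 0.585 of 0, which is a fold of 1.5 either way, as it did for 19343 of all genes. The intervals are those of single genes and were not widened for the number of genes.

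**Figure D1:**
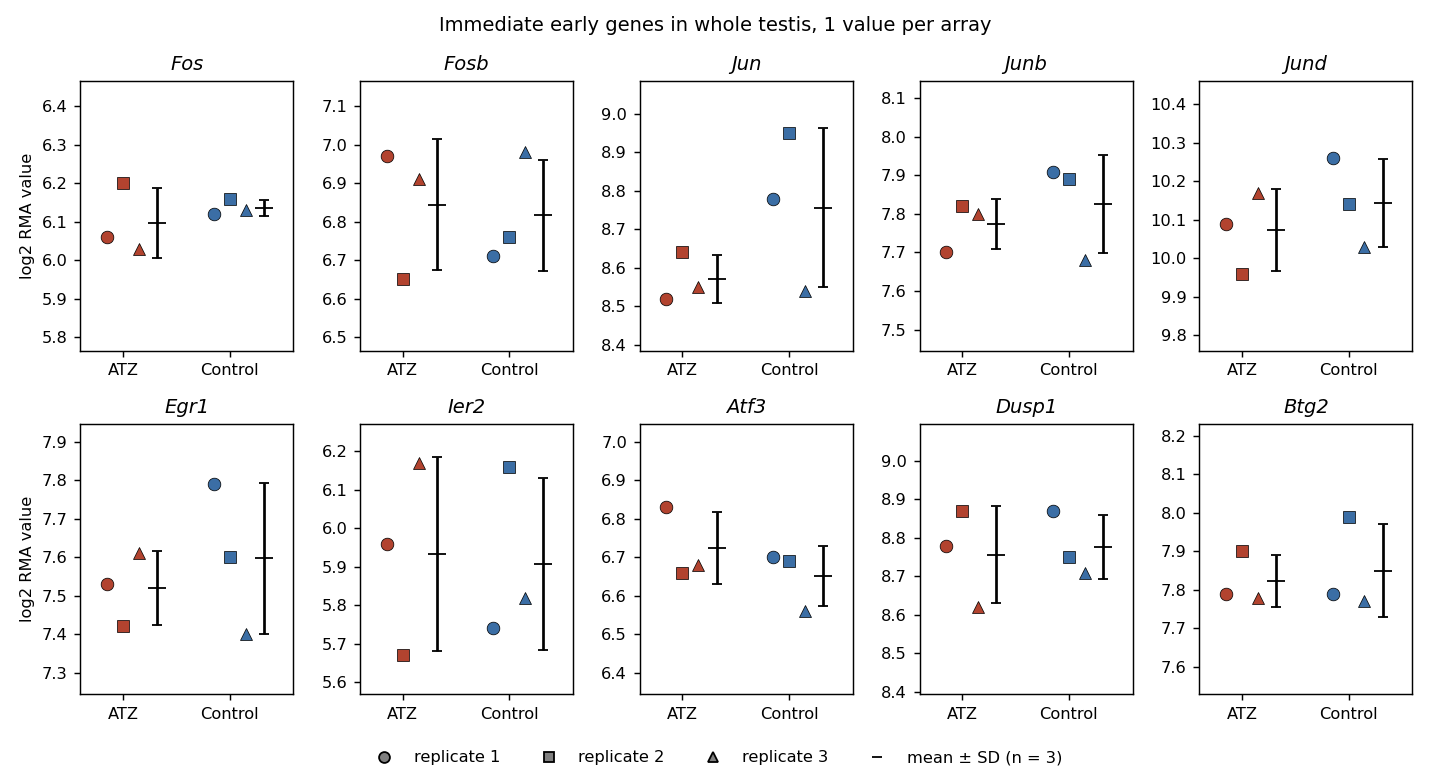
Log2 RMA value of each immediate early gene on each array, ATZ-treated (red) left of control (blue). Markers stand for replicate numbers, and the labels do not say that these pair the arrays. Black bars are means ± SD (n = 3), and every panel spans the same height in log2 units. The groups overlap in all 10 panels, and Jun shows control replicate 3 at 8.54, among the ATZ-treated values.

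Jun, the AP-1 subunit that pairs with Fos or with itself, had the largest difference of the 10. It measured 8.52, 8.64 and 8.55 in ATZ-treated samples, against 8.78, 8.95 and 8.54 in control samples. A pair of control samples stood above every ATZ-treated sample, and the control sample with replicate number 3 lay among the ATZ-treated ones. The means were 8.57 ± 0.0624 in ATZ-treated and 8.76 ± 0.206 in control samples (SD, n = 3 each). The log2 change was -0.19 (standard error 0.12, 95% interval -0.48 to 0.11), a fold of 0.879, with an adjusted p of 0.998 from limma. An exact permutation test, two-sided, gave 0.3, where 3 samples against 3 cannot go below 0.1. Without control replicate 3 the groups no longer overlapped and the log2 change of Jun was -0.295, with an unadjusted p of 0.0364 and an adjusted p of 0.834 from limma. Without control replicate 2, the highest array, it was -0.09. Leaving out single arrays thus gave values between -0.295 and -0.09, and the adjusted p passed in none of them. Without control replicate 3, 12.6% of all genes were lower in ATZ-treated samples with no overlap.

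Junb, a Jun subunit with weaker activating power than Jun on many promoters, measured 7.7, 7.82 and 7.8 in ATZ-treated samples and 7.91, 7.89 and 7.68 in control samples. The same control sample, replicate 3, was here the lowest of all 6. The log2 change of Junb was -0.05 (standard error 0.10, interval -0.29 to 0.18), and leaving out single arrays moved it between -0.127 without control replicate 3, where the groups did not overlap for Junb either, and -0.012 without control replicate 1, while removal of ATZ replicate 1 gave -0.017 and removal of control replicate 2 gave -0.022. Jund, the Jun subunit that resting cells keep at a steady level, measured 10.09, 9.96 and 10.17 in ATZ-treated samples and 10.26, 10.14 and 10.03 in control samples. Both groups span a similar range, and the log2 change was -0.07 (standard error 0.10, interval -0.32 to 0.18). It was -0.127 without control replicate 3, -0.118 without ATZ replicate 3, -0.012 without control replicate 1 and -0.013 without ATZ replicate 2. The other probe set of Jund, which was dimmer, had 6.92, 6.95 and 6.72 in ATZ-treated samples and 6.91, 6.82 and 6.87 in control samples, with a 95% interval of -0.23 to 0.23 around a change of 0.

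The Fos subunits, which cannot form a dimer among themselves and need a Jun partner, showed smaller differences. Fos measured 6.06, 6.2 and 6.03 in ATZ-treated samples and 6.12, 6.16 and 6.13 in control samples. The control values lay within a narrow band, with an SD of 0.0208, and ATZ replicate 2 stood above it while the other two ATZ-treated samples stood below it. The log2 change of Fos was -0.04 (standard error 0.09, interval -0.25 to 0.17), and without ATZ replicate 2 both remaining ATZ-treated values were under every control value, as were those of 7.4% of all genes. The change of Fos was then -0.092, whereas removal of ATZ replicate 1 gave -0.022 and removal of ATZ replicate 3 gave -0.007. Fosb measured 6.97, 6.65 and 6.91 in ATZ-treated samples and 6.71, 6.76 and 6.98 in control samples. Each group held both high and low samples, so the spread within Fosb, with SDs of 0.17 in ATZ-treated and 0.144 in control samples, exceeded the log2 change of 0.03 (standard error 0.13, interval -0.28 to 0.33). Fos and Ier2 were the members whose mean over all arrays lay below the median of the probe set means. Whether Fos was above background could not be judged, since the values used carry no detection call, and a change in a dim probe set is compressed toward 0.

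Egr1, a zinc finger factor that gonadotropins induce in gonadal cells, measured 7.53, 7.42 and 7.61 in ATZ-treated samples and 7.79, 7.6 and 7.4 in control samples. Its highest value was control replicate 1 and its lowest control replicate 3, and all 3 ATZ-treated samples lay between them. The log2 change of Egr1 was -0.08 (standard error 0.12, interval -0.37 to 0.22). Leaving out control replicate 3 gave -0.175 and leaving out control replicate 1 gave 0.02, so its sign turned, and removal of ATZ replicate 2 gave -0.027 and of ATZ replicate 3 gave -0.122. Atf3, a basic leucine zipper factor of the ATF/CREB family that stress induces in many cells, measured 6.83, 6.66 and 6.68 in ATZ-treated samples and 6.7, 6.69 and 6.56 in control samples. It was the only one of the 10 with a mean over 0.05 log2 units higher in ATZ-treated samples, at 0.07 (standard error 0.09, interval -0.15 to 0.30). Removal of ATZ replicate 1 left 0.02 and removal of control replicate 3 left 0.028. Ier2, a nuclear protein of the early response, had the widest spread of the 10. It measured 5.96, 5.67 and 6.17 in ATZ-treated samples and 5.74, 6.16 and 5.82 in control samples, with an interval of -0.38 to 0.44. These values cross between the groups, and Ier2 was also below the median of the probe set means, and its interval, folds of 0.767 to 1.35, is the widest of the 10.

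The last pair restrain signalling or growth. Dusp1, a phosphatase that switches off MAP kinases and so limits the response that induces it, measured 8.78, 8.87 and 8.62 in ATZ-treated samples and 8.87, 8.75 and 8.71 in control samples. Btg2, an antiproliferative protein of the BTG/TOB family, measured 7.79, 7.9 and 7.78 in ATZ-treated samples and 7.79, 7.99 and 7.77 in control samples. Both are the genes with an exact match of the CRE, TGACGTCA, in the promoter stretches printed above. Inexact forms of the CRE were not searched, and the printed stretch of Fos holds its first letters, tgacgt. Their log2 changes were -0.02 for Dusp1 (standard error 0.10, interval -0.26 to 0.22) and -0.03 for Btg2 (standard error 0.10, interval -0.26 to 0.21). For Btg2 the ATZ-treated and control samples with replicate numbers 1 and 3 all lay between 7.77 and 7.79, and only the samples numbered 2 were higher.

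**Figure D2:**
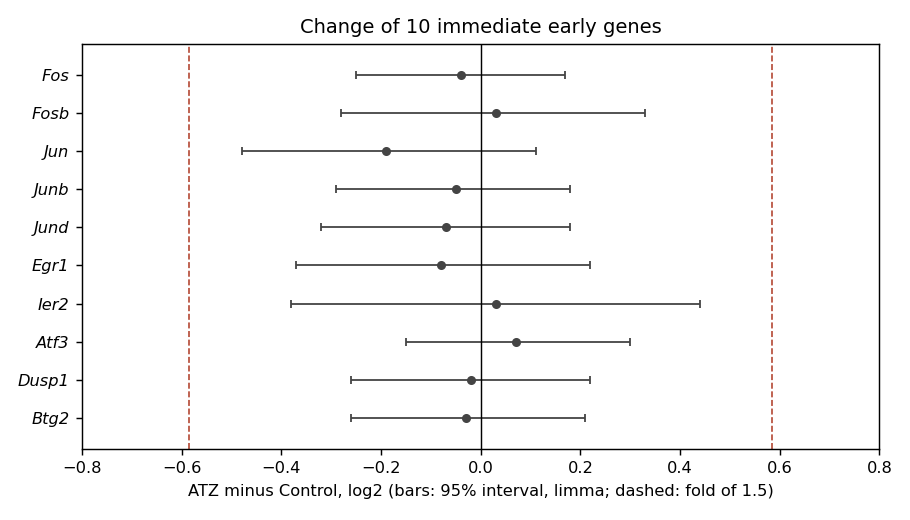
Log2 change, ATZ-treated minus control, of the 10 immediate early genes with 95% intervals from limma (3 arrays per group). Dashed lines mark a fold of 1.5 either way. All 10 intervals include 0 and end inside the dashed lines, with Jun reaching furthest down, to -0.48, and Ier2 furthest up, to 0.44.

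Over the 10 genes, 7 had a log2 change below 0 and 3 above, with a median of -0.033, while 50.8% of all genes were below 0 and their median was -0.003. The difference between those medians is smaller than the SD of the members' mean between replicates, 0.0572. The samples of a group differed more among themselves than the groups did. Averaged over the 10 genes, the deviation from each gene's own mean was -0.006, -0.05 and 0.003 in ATZ-treated samples and 0.038, 0.08 and -0.067 in control samples. The highest and the lowest array were both controls. Control replicate 3 was the lowest of the controls for 7 of the 10 genes (Jun, Junb, Jund, Egr1, Atf3, Dusp1 and Btg2), where the share over all genes was 38.4%. It was the lowest of all 6 arrays for 4 of them, as it was for 3460 of all 22180 genes. Fos, Fosb and Ier2 went their own way. The pooled SD within groups had a median of 0.109 over the 10 genes and 0.132 over all genes, running between 0.0658 for Fos and 0.237 for Ier2.

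Markers of somatic cells of the testis varied across the same arrays, and more widely. Over 44 measured markers of Leydig, Sertoli, peritubular, macrophage and endothelial cells out of 47, the mean level was 8.80, 8.75 and 8.59 in ATZ-treated samples and 8.83, 9.01 and 8.57 in control samples. Their mean deviation was 0.046, -0.009 and -0.17 in ATZ-treated samples and 0.07, 0.253 and -0.191 in control samples. Control replicate 2 was thus the highest array, and control replicate 3 the lowest, for these markers and for the 10 genes alike. This order is not particular to them, as the same arrays were highest and lowest over all genes, at 0.014 and -0.02. ATZ replicate 3 was low for the markers and, at a mean deviation of 0.003, not for the immediate early genes as a group. It was still the lowest array for Fos and Dusp1. The log2 change was below 0 for 33 of the 44 markers, with a median of -0.093. Of the 44 markers, 41 were lowest among controls in control replicate 3. Spermatid markers had mean deviations of 0.009, 0.003 and -0.021 in ATZ-treated samples and 0.000, -0.026 and 0.035 in control samples. Those of spermatocytes stayed between -0.05 and 0.042. The 8 spermatogonia markers had 0.047, -0.038 and -0.176 in ATZ-treated samples and -0.013, 0.242 and -0.062 in control samples. Of these 8, 7 had a log2 change below 0, with a median of -0.12, so such variation was not confined to somatic cells. The part of cell makeup in the values of Jun, Junb and Egr1 was not tested. None of the 8 listed genes of red blood cells had a probe set with that symbol alone.

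**Figure D3:**
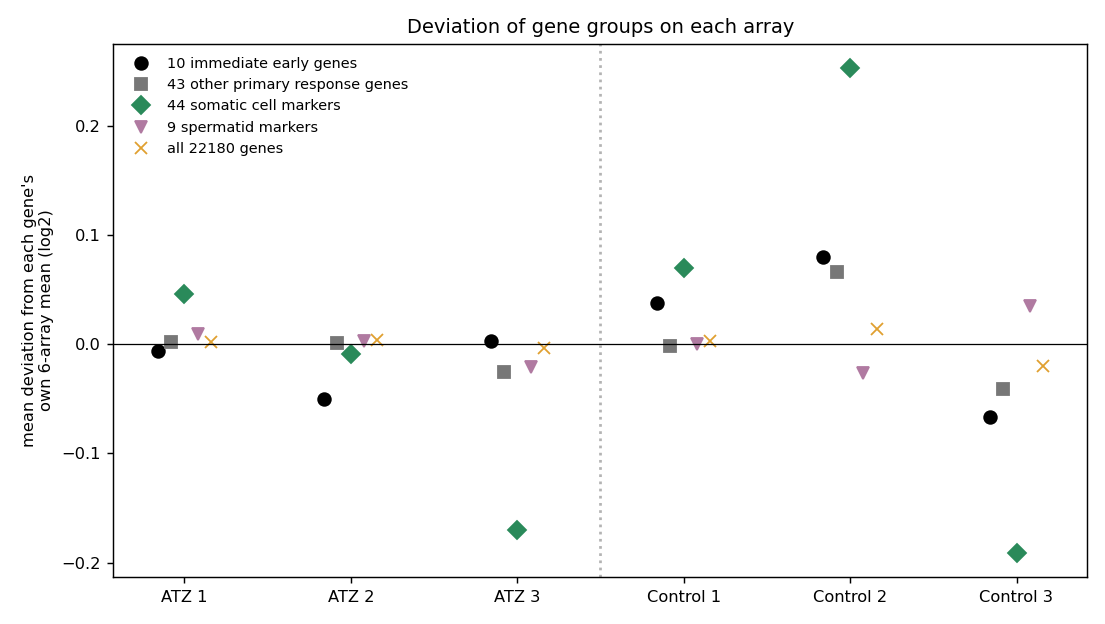
Mean deviation (log2) of each gene group from the genes' own means over the 6 arrays, on the ATZ-treated arrays (left) and the control arrays (right). Black circles are the 10 immediate early genes and green diamonds 44 somatic cell markers. Both are highest on control 2 and lowest on control 3, at -0.067 and -0.191, as are all genes by less, at 0.014 and -0.02. ATZ 3 is low for the markers, at -0.17, and not for the 10 genes, at 0.003. The other primary response genes have -0.025 there.

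Of 44 other primary response genes, listed by name, 43 were measured, 28 with a log2 change below 0 and 15 above, with a median of -0.03. None passed the adjusted test of limma, 1 had an unadjusted p under 0.05, and 0 met the criterion of fold and p. That 1 was Fosl2, which encodes Fra-2, a further Fos subunit of AP-1. Fosl2 measured 7.78, 7.5 and 7.56 in ATZ-treated samples, against 8.04, 7.96 and 7.81 in control samples. Each ATZ-treated value lay below each control value, though ATZ replicate 1 and control replicate 3 were only a little apart. Its log2 change was -0.32 (standard error 0.11, interval -0.60 to -0.05), with an unadjusted p of 0.0269 and an adjusted p of 0.998 from limma, so it did not pass. The log2 change was between -0.407 and -0.267 without single arrays, and the unadjusted p passed 0.05 upward on removal of any array but ATZ replicate 1 and control replicate 3. Against the 2.39% of all genes with such an unadjusted p, 1 gene of 43 is near the background.
Egr2, the zinc finger relative of Egr1, measured 6.68, 6.86 and 6.83 in ATZ-treated samples and 6.62, 6.38 and 6.72 in control samples, a log2 change of 0.22 (interval -0.07 to 0.50). Ptgs2, the inducible cyclooxygenase, measured 5.12, 5.3 and 5.18 in ATZ-treated samples and 4.91, 5.09 and 5.09 in control samples, with no overlap and a log2 change of 0.17 (interval -0.07 to 0.41). Cebpd, a leucine zipper factor, had 0.22 (interval -0.08 to 0.52). None of these 3 reached an unadjusted p under 0.05. Ptgs2 and Cebpd, at means of 5.11 and 6.19, lay below the median probe set, 6.62, where changes are compressed toward 0. With no overlap, 2 of the 43 genes were lower in ATZ-treated samples, Fosl2 among them, and 1 was higher. The shares over all genes were 3.08% and 3.83%. The nuclear receptor Nr4a1, which luteinizing hormone induces in Leydig cells, measured 10.35, 10.31 and 10.53 in ATZ-treated samples and 10.47, 10.29 and 10.52 in control samples. Its log2 change was -0.03 (interval -0.29 to 0.23), and it is named here after its values were seen. For 40 of the 43 genes the interval lay within a fold of 1.5, the exceptions being Fosl2, Rhob (-0.25, interval -0.62 to 0.12) and Ccn2 (0.24, interval -0.23 to 0.71), the last pair named after their values were seen.

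**Figure D4:**
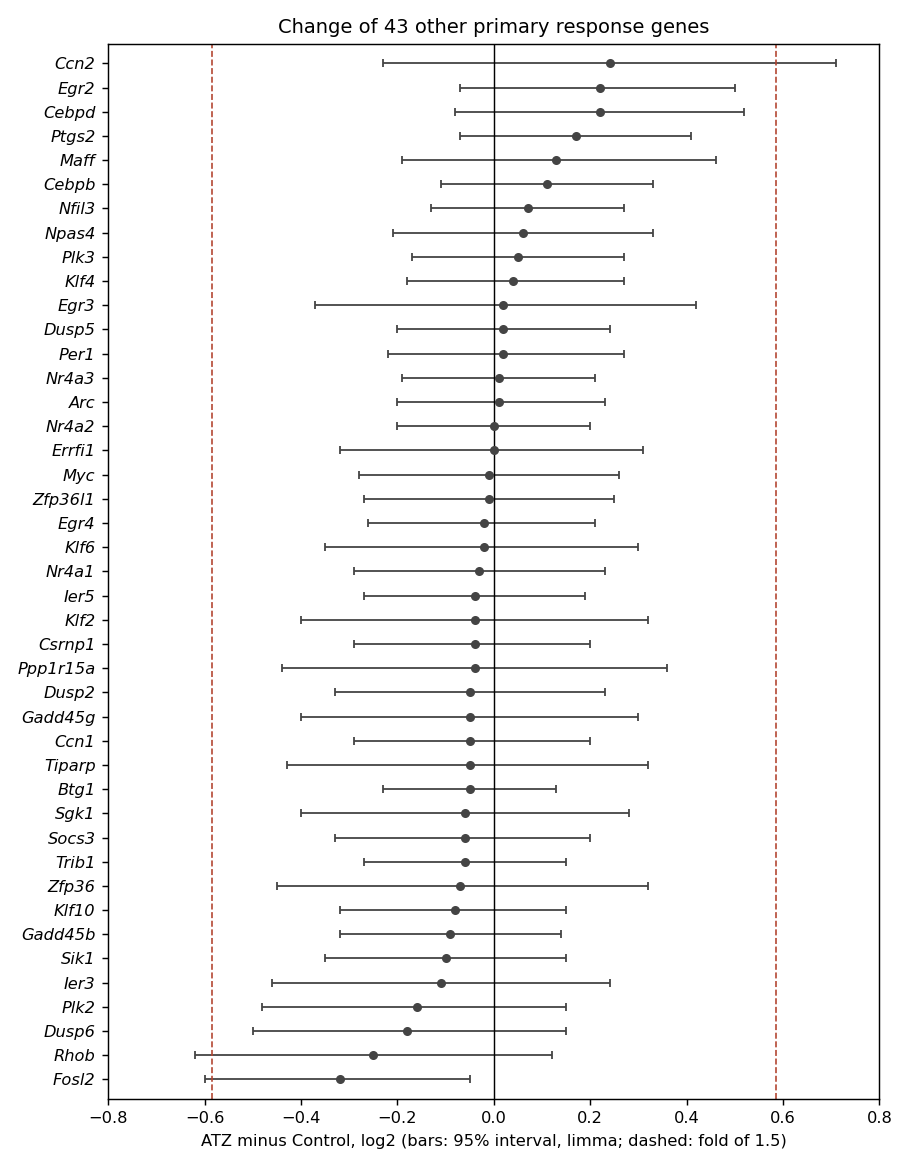
Log2 change, ATZ-treated minus control, of 43 other primary response genes with 95% intervals from limma, in order of the change. Dashed lines mark a fold of 1.5 either way. Fosl2, at -0.32, is the one gene whose interval leaves out 0, and its adjusted p was 0.998.

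The kinases and factors that act on immediate early genes were measured for 23 of 29 listed genes, with 13 below 0, 10 above and a median log2 change of -0.023. None had an unadjusted p under 0.05. Rps6ka3, a kinase downstream of ERK, had -0.19 (interval -0.53 to 0.15), the CREB coactivator Crtc3 -0.17 (interval -0.53 to 0.19), the MAP kinase kinase Map2k1 0.11 (interval -0.13 to 0.36), and the catalytic subunit of protein kinase A Prkacb -0.12 (interval -0.45 to 0.21). All 23 intervals lay within a fold of 1.5. Of 15 measured basic leucine zipper partners of AP-1, 8 were below 0 and 7 above. Mafg, a small Maf protein, had the smallest p among them and a log2 change of -0.15 (interval -0.36 to 0.06) with no overlap. Cebpg had no overlap the other way, at 0.10 (interval -0.10 to 0.29). Over all genes, 3.08% were lower and 3.83% higher with no overlap. Maf had -0.20 and Batf had 0.21 (interval -0.14 to 0.57). Among 9 other MAP kinase phosphatases and BTG/TOB genes, 5 were below 0 and 4 above, with Dusp4 at 0.17 (interval -0.13 to 0.47) and Dusp8 at -0.17 (interval -0.50 to 0.16). Dusp8 was dim, at a mean of 6.34, below the median probe set, 6.62. Heat shock and stress genes were below 0 for 8 of 12 and above for 4, with a median of -0.04. The chaperone Hsph1 had -0.13, Hmox1, which breaks down heme, had -0.18 (interval -0.59 to 0.23) and the inducible chaperone Hspa1a 0.13 (interval -0.18 to 0.45). No gene of these 4 lists had an unadjusted p under 0.05 with limma.

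Genes that cyclic AMP induces in Leydig cells were measured for 12 of 16, with 8 below 0, 4 above and a median of -0.03. Star, which brings cholesterol into mitochondria and whose promoter responds to cyclic AMP, was the one of them that met the criterion of fold and p. Star measured 10.48, 10.49 and 10.30 in ATZ-treated samples and 11.30, 11.31 and 10.57 in control samples, with a log2 change of -0.64 (interval -1.15 to -0.13) and an adjusted p of 0.998 from limma. Without control replicate 3 the change of Star was -0.882 with an adjusted p of 0.834, and it no longer met the criterion without ATZ replicate 3 (-0.575), control replicate 1 (-0.517) or control replicate 2 (-0.512). All 8 measured Leydig cell markers, Star among them, were below 0, with a median of -0.117. Control replicate 3 was the lowest control for Star as for Jun, Junb, Jund and Egr1. Of the further genes of this list, Ereg, a growth factor of the EGF family, had 0.33 (interval -0.07 to 0.73), Cebpb 0.11 (interval -0.11 to 0.33) and the kinase Sik1 -0.10 (interval -0.35 to 0.15). Ereg was dim, at a mean of 6.4, below the median probe set, 6.62.

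The genes most like the members in their pattern over the 6 arrays were found by Pearson's r with the mean of the 10 genes, among 14244 genes brighter than the median probe set. The 8 highest were Rftn1 (r = 0.996), Rnf157 (r = 0.992), Alad (r = 0.984), Map6d1 (r = 0.984), Celf1 (r = 0.983), Plpp2 (r = 0.978), Uba1y (r = 0.976) and Aph1a (r = 0.976). They are given as a description, since they were picked for that r and 6 points allow high values, with 52 genes at 0.95 or more. None of the 8 is in any list of response genes or cell markers used here. Rftn1 measured 6.94, 6.87 and 6.98 in ATZ-treated samples and 7.06, 7.17 and 6.82 in control samples, which is the order of arrays that the mean of the members has. The log2 changes of the 8 genes ran between -0.12 and -0.03.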

How the data were processed

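The deposited values are log2 values, 1 per probe set and array, which the authors made with RMA using Affymetrix's Expression Console (background correction, normalization between arrays, summary of probes). Versions are not given in the sources used here. They cover 41345 probe sets on 6 arrays at 2 decimals, without detection calls, and array medians lay between 6.60 and 6.69. The number of arrays, 3 per group, limits the precision.

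Gene names come from the annotation of the array, which gives 1 symbol to 23521 probe sets. Where a gene had several, the brightest on average stood for it, which gave 22180 genes, and 4 older names in the lists (Cyr61, Ctgf, Mkl1 and Mkl2) were updated through RefSeq. The test was limma 3.58.1 (lmFit, eBayes; R 4.3.3) over all probe sets, and the fit was tested on simulated data of the same size. The study names AMEN software with a fold of 1.5 and a p threshold for its arrays, and neither the test nor an adjustment. Intervals use the moderated standard error. Python 3.11.15 was used for counts and plots, with pandas 2.3.3 and matplotlib 3.10.9.

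The members and all lists were chosen with earlier results of these data known. Named are the members, up to 4 genes of each other response list, by smallest p (for cell markers, counts and levels are given instead), and the 8 genes most like the members; Nr4a1, Rhob and Ccn2 were named after their values were seen.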

Additional observations from a re-analysis of the deposited data

How the results depend on the processing

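For the 10 genes, the log2 changes, their median, and the counts passing the tests or lower with no overlap were computed again under 16 alternatives. So were the counts below 0 in the lists of response genes and, chosen after seeing the data, the changes of 27 other response genes. The intervals of the changes, cell marker levels and the genes most like the members were not. Whether the intervals of the 10 genes stay within a fold of 1.5 under these alternatives was thus not tested. The counts of the 10 genes with an adjusted p under 0.05 and of those meeting the criterion of fold and p were 0 under each, the replicate block included, where Jun kept a log2 change of -0.187 with an adjusted p of 0.877 from limma. Same-numbered samples had deviations from their group means that correlated at 0.0172, 0.106 and 0.26 over all probe sets. The labels give no pairing or batch, and whether same-numbered samples share more than a number was not tested. Over the 158 values of single genes, 1 had an unadjusted p under 0.05 (Jun without control replicate 3) and the lowest adjusted p was 0.834. The count of genes lower in ATZ-treated samples with no overlap, 0 with all arrays, ranged from 0 to 2 when single arrays were left out: 1 without ATZ replicate 2 (Fos), 2 without control replicate 3 (Jun and Junb), where the shares of all genes were 7.4% and 12.6%. The median log2 change of the 10 genes ranged from -0.06 to -0.019 without single arrays.

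The sign of small changes turned in 16 cases. With quantile normalization again, Btg2 had 0.006, Dusp1 0.020 and Ier2 -0.014, and with arrays centred on their medians, Fosb and Ier2 both had -0.003. Without single arrays, Btg2 ranged from -0.067 to 0.043, Dusp1 from -0.077 to 0.048, Egr1 from -0.175 to 0.02, Fosb from -0.037 to 0.123 and Ier2 from -0.092 to 0.158. Jun, Junb, Jund, Fos and Atf3 kept their sign under every alternative run on them, but without single arrays Jun ranged from -0.295 to -0.09, Junb and Jund each from -0.127 to -0.012, Fos from -0.092 to -0.007 and Atf3 from 0.02 to 0.105. Among 428 values of the 27 other genes, 0 had an adjusted p under 0.05 (lowest 0.807) and 3 turned sign: without single arrays, Btg4 ranged from -0.005 to 0.15 and Nr4a1 from -0.098 to 0.017. Fos and Ier2 were not tested where dim probe sets were left out. No direction should be read from the 5 genes whose sign turned, nor from the others, since all 10 intervals of the main fit include 0. The median change of all genes moved from -0.003 to 0.001 with quantile normalization and to -0.033 with centred arrays.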
